A study of Mus musculus with 12 samples.

Results

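The mouse mitochondrial genome encodes 13 proteins, and all of them are subunits of the respiratory chain or of ATP synthase. The genes described here were 10 of these 13, taken by symbol from the 55414 genes of the count table: mt-Nd1, mt-Nd2, mt-Nd4, mt-Nd5 and mt-Nd6 of complex I, mt-Cytb of complex III, mt-Co1, mt-Co2 and mt-Co3 of complex IV, and mt-Atp6 of ATP synthase. They were measured by poly(A) RNA sequencing of the inferior vena cava (IVC) of 12 wild-type C57BL/6 mice, 10 weeks old, on postoperative day 7. In the AVF group (n = 6), an infrarenal aortocaval fistula was made with a needle through the aorta into the IVC, so that arterial blood flowed into the vein. The sham group (n = 6) was operated in the same way without the puncture, and each group had 3 female and 3 male mice with 1 library per mouse. The model shows an early stage of venous remodeling in young mice, and the vessel was sequenced whole, with no sorting of its cells.

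The respiratory chain carries electrons from NADH and succinate through complexes I to IV to oxygen and pumps protons across the inner mitochondrial membrane, and ATP synthase uses the proton gradient to make ATP. Its complexes are built from subunits of both genomes, except complex II, whose subunits all come from nuclear genes. Mitochondrial DNA is present in many copies per cell and is transcribed by its own polymerase, Polrmt, from both strands into long transcripts, which are cleaved into the rRNAs, tRNAs and mRNAs that the mitochondrial ribosome then translates.

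The 10 genes lie on 1 circular chromosome (GRCm39), from mt-Nd1 at chrM:2751-3707 to mt-Cytb at chrM:14145-15288. They have no introns, and 9 of them are on the plus strand; mt-Nd6 at chrM:13552-14070 is on the minus strand. The ends of 5 of the mRNAs are shown for their stop codons and for the overlap of mt-Nd5 and mt-Nd6. The last 30 bases of each gene follow, in the sense of the mRNA, with the bases of the stop codon that the DNA holds in capitals.
mt-Co3: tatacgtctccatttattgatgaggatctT
mt-Nd4: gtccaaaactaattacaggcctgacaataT
mt-Cytb: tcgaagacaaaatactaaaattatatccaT
mt-Nd5: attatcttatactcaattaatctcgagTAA
mt-Nd6: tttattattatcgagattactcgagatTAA
mt-Co3, mt-Nd4 and mt-Cytb ended in a single T, and their stop codon is completed only by the poly(A) tail of the mRNA. In mt-Nd5 and mt-Nd6 the stop codon was complete, and the ends of these genes overlapped by 14 bases on opposite strands (chrM:13552-13565). The libraries were stranded, so that reads of this pair could be told apart. On the same strand, mt-Atp6 shared 43 bases with mt-Atp8 and 1 base with mt-Co3, and mt-Nd4 shared 7 bases with mt-Nd4l.

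The nuclear genome holds copies of mitochondrial DNA, and reads from such a stretch fit both places. A search of the annotated transcripts with at least 95% identity over at least 290 bases found 11 copies that are also in the count table, of which 9 matched 7 of the 10 genes; the other copies matched mt-Nd3 and mt-Nd4l. A block on chromosome 1 minus strand, chr1:24650616-24655278, held 7 of them in the order of the mitochondrial genome. Gm28439 in it was identical to the first 876 bases of mt-Nd4, Gm28437 to 783 bases of mt-Co3, Atp6-ps to 678 bases of mt-Atp6 and Gm28661 to 681 bases of mt-Co2. Gm29216 matched bases 1063 to 1545 of mt-Co1 with 1 difference, A1066T, counted from the first base of the gene. Chromosome 2 held Gm13339, Gm13340 and Gm13341, with 96.7%, 97.6% and 95.9% identity to mt-Nd2, mt-Co1 and mt-Co2, and Gm4076 on chromosome 13 had 95.2% identity to mt-Nd5. No copy at this threshold was found for mt-Nd1, mt-Nd6 and mt-Cytb. Stretches of 60 bases of 3 genes and their chromosome 1 copies are shown, with a base that differs in capitals, because reads of this kind were divided between both loci by the counting program.
mt-Co1: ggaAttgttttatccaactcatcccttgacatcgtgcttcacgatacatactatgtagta
Gm29216: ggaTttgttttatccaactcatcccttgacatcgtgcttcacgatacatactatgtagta
mt-Co2: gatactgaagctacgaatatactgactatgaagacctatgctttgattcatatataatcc
Gm28661: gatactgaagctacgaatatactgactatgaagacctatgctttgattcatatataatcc
mt-Atp6: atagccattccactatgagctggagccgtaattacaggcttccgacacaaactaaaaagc
Atp6-ps: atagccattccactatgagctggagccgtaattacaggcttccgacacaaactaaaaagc
The stretches are chrM:6390-6449 and chr1:24655210-24655269 for mt-Co1 and Gm29216, chrM:7323-7382 and chr1:24654277-24654336 for mt-Co2 and Gm28661, and chrM:8236-8295 and chr1:24653364-24653423 for mt-Atp6 and Atp6-ps. The last 2 pairs were the same in every base, so a read within them could not be placed by its sequence.

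The libraries held 15177881 to 22717423 counts. Smooth muscle and endothelial markers of a vein were present in all 12 libraries, with summed levels of 2388 to 4999 and 1682 to 2847 normalized CPM, which are counts scaled to the size of the library. Some libraries stood apart in transcripts of other tissues. The summed hepatocyte markers were 3002 and 9308 CPM in AVF male 2 and AVF female 2, and 1.31 to 6.47 CPM in the other 10. The summed markers of cardiac and skeletal muscle were 1025 and 1257 CPM in sham female 1 and sham female 3 and 5.43 to 77.6 CPM in the others. In AVF female 1, nuclear rRNA took 43.5% of the counts, against 1.2 to 11.4% elsewhere. Counts of the members are therefore also given without these libraries.

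All 10 mitochondrially encoded mRNAs had a lower mean in AVF than in sham IVC, with log2 fold changes of -0.85 to -0.47 and a median of -0.71, beside a median of -0.01 over the 15912 genes tested. 3 of them fell at an adjusted p under 0.05, mt-Nd1, mt-Nd6 and mt-Co2, and 7 did not pass the test. None was higher, none changed by 2-fold or more, and in none did every AVF library lie below every sham library. Over all genes tested, 5.13% were called lower in AVF, 8.63% higher, and 1.4% lower by at least 2-fold, and 1.51% had every AVF library below every sham library. The unadjusted p was under 0.05 in 10 of 10 of these genes and in 5023 of the 15912 genes tested. The test was the quasi-likelihood F test of edgeR, and adjusted p refers to the Benjamini-Hochberg procedure over all genes. A lower level in such whole vessels can come from fewer cells of a type or from less RNA per cell, and these cannot be told apart.

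Of complex I, which takes electrons from NADH, 5 members were measured, and mt-Nd6 and mt-Nd1 fell. mt-Nd6, a subunit of the membrane arm and the only one encoded on the minus strand, had 474, 736 and 932 CPM as the lowest, median and highest AVF value and 880.2, 1350.0 and 1626 CPM in sham. 4 of 6 AVF libraries lay below the lowest sham library, and 5 of 6 sham libraries lay above the highest AVF library. Its mean was 741 ± 179.7 CPM in AVF and 1334 ± 264 CPM in sham (SD, n = 6; log2 fold change -0.85, SE 0.18, adjusted p = 0.0125; edgeR). mt-Nd1, which forms part of the quinone site of complex I, had 5303, 6246 and 10127 CPM in AVF and 8646, 9659 and 17722 CPM in sham, again as lowest, median and highest. The groups overlapped through AVF female 2 only, at 10127 CPM, while the other 5 AVF libraries were below all sham libraries. The means were 6738 ± 1827 and 11167 ± 3459 CPM (log2 fold change -0.73, SE 0.22, adjusted p = 0.0467; edgeR).

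mt-Nd2, mt-Nd4 and mt-Nd5 encode the antiporter-like subunits of complex I that pump protons, and none of them passed the test. mt-Nd2 ranged over 3853 to 10076 CPM in AVF and 8059.7 to 17082 CPM in sham (log2 fold change -0.80, SE 0.25, adjusted p = 0.0553; edgeR). mt-Nd4 ranged over 7478 to 16261 CPM in AVF and 13761 to 24916 CPM in sham (log2 fold change -0.70, SE 0.22, adjusted p = 0.0513; edgeR). In both, AVF female 2 was the one AVF library above the lowest sham library. mt-Nd5 had the smallest difference of the 10, with 5194 to 8637 CPM in AVF and 5992 to 13433 CPM in sham (log2 fold change -0.47, SE 0.20, adjusted p = 0.135; edgeR), and 3 of 6 AVF libraries lay within the sham range.

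Cytochrome b, encoded by mt-Cytb, is the subunit of complex III that holds its b haems. mt-Cytb had 8484, 10467 and 17994 CPM as lowest, median and highest AVF value and 14021, 16438 and 27042 CPM in sham (log2 fold change -0.71, SE 0.23, adjusted p = 0.0539; edgeR). Only AVF female 2 reached the sham range. The 3 complex IV genes encode its core: mt-Co1 the subunit where oxygen is reduced, mt-Co2 the one that takes electrons from cytochrome c, and mt-Co3 a further core subunit. mt-Co2 fell, with 4165, 4462 and 7389.8 CPM in AVF and 5554, 8362 and 12865 CPM in sham and means of 4977 ± 1234 and 8902 ± 3068 CPM (log2 fold change -0.84, SE 0.24, adjusted p = 0.0357; edgeR). 5 of 6 AVF libraries were below the lowest sham library. mt-Co1 had 14509 to 29752 CPM in AVF and 25607 to 42090.2 CPM in sham (log2 fold change -0.61, SE 0.22, adjusted p = 0.0788; edgeR). mt-Co3 had 3797 to 9004 and 6999 to 13913 CPM (log2 fold change -0.71, SE 0.23, adjusted p = 0.0589; edgeR). Neither passed the test. mt-Atp6, the subunit of ATP synthase that forms its proton channel, had 4243 to 7962 CPM in AVF and 6330.4 to 12263 CPM in sham and did not pass the test (log2 fold change -0.60, SE 0.22, adjusted p = 0.0869; edgeR).

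**Figure D1:**
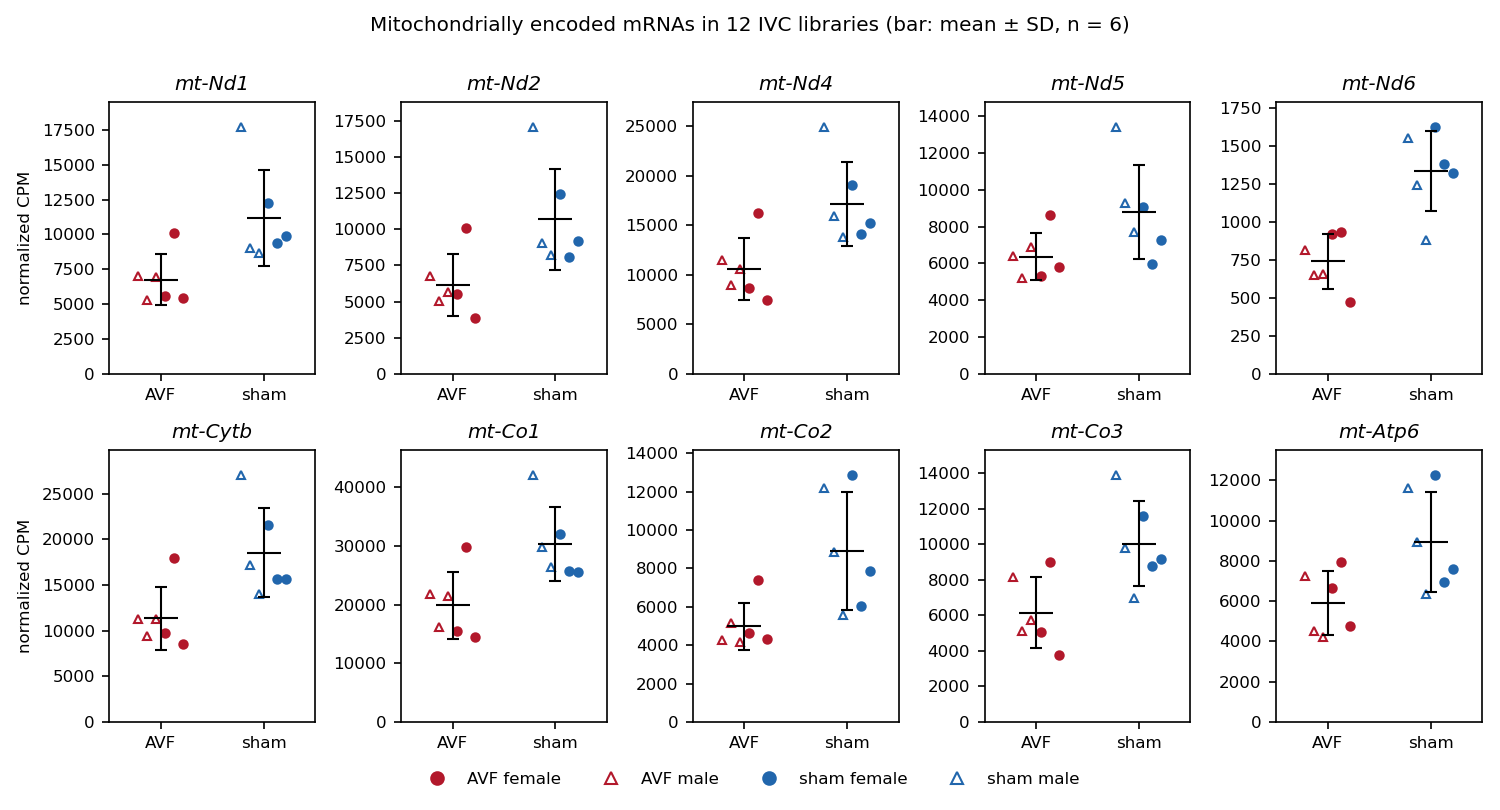
Normalized CPM of the 10 mitochondrially encoded mRNAs in each library, AVF in red and sham in blue, female mice as filled circles and male mice as open triangles, with bars at the mean ± SD (n = 6). All 10 means are lower in AVF, and the groups overlap in every panel, in most of them through the filled red circle of AVF female 2.

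The count of 3 moved with single libraries. The adjusted p of mt-Nd4, mt-Cytb, mt-Nd2 and mt-Co3 was 0.0513 to 0.0589 by edgeR. Without AVF female 2, 8 of the 10 fell (4.62% of all genes), and without sham male 3, 5 fell (5.09%). Without AVF male 1 or sham female 2, 2 fell (4.08% and 2.62% of all genes). 1 member fell, mt-Nd6, beside 2.69% to 5.97% of all genes, without AVF male 2, AVF male 3, AVF female 1, AVF female 3, sham male 1, sham male 2, sham female 1 or sham female 3. mt-Nd6 was called without each of the 12 libraries in turn, and of the 28 alternatives run only that without 4 libraries ended its call. Without AVF male 2 and AVF female 2, the libraries with liver transcripts, 5 of 10 fell (2.05% of all genes), with a median log2 fold change of -0.84. Without these and the 2 sham libraries with muscle transcripts, 4 AVF and 4 sham libraries were left. The AVF libraries were AVF male 1, AVF male 3, AVF female 1 and AVF female 3. The sham libraries were sham male 1, sham male 2, sham male 3 and sham female 2. The sexes were thus not balanced, and sex was not in that fit. On these libraries, edgeR called 0 of 10 members (0.51% of all genes), and the median was -0.81. By edgeR, 8 of 10 then had an unadjusted p under 0.05, but the share over all genes was not counted for that cut. On the full set of libraries, edgeR's exact test called 9 of 10 (6.28% of all genes) and DESeq2 9 of 10 (9%), all but mt-Nd5. Sex as a covariate, scaling to nuclear non-rRNA genes or to total counts, and a filter of over 12 counts each called 2. These were mt-Nd6 and mt-Co2, beside 4.98%, 5.1%, 4.85% and 3.05% of all genes in that order. With no filter of low counts, 1 member was called (1.56%). The direction of the 10 did not change under any of the 28.

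The nuclear copies took a part of the reads of some members. Over the copies, the counts made up 1.04 to 5.08% of a library. Atp6-ps had a mean of 6771 CPM in AVF and 11441 CPM in sham, and Gm28661 had 7337 and 12691 CPM, each more than the mitochondrial gene it copies. Of the counts of mt-Co2 and its copies, 32.7% to 48.1% were given to mt-Co2, and for mt-Atp6 the share was 35.5% to 60.3%. It was 66.4% to 85.5% for mt-Co3, 87.4% to 94.2% for mt-Co1, and at least 99.8% in every library for mt-Nd2 and mt-Nd5. The levels of mt-Co2, mt-Atp6 and mt-Co3 by themselves are therefore uncertain. Whether these counts came from RNA of the nuclear copies or of the mitochondrial genes cannot be told apart where the sequences are identical.

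The share given to mt-Nd4 was 91.1 to 98.2% in AVF and 98.4 to 99.7% in sham, and these ranges did not overlap. Its copy Gm28439 had 212 to 846 CPM in AVF and 47.8 to 223 CPM in sham (log2 fold change 1.25, SE 0.39, adjusted p = 0.052; edgeR), the opposite direction to all other copies, and did not pass the test. Gm29216, the copy of the end of mt-Co1, fell (log2 fold change -1.22, SE 0.21, adjusted p = 0.00305; edgeR), and every AVF library was below every sham library. Such separation was seen in 1 of the 11 copies, beside 1.51% of all genes tested. In all, 5 of the 11 copies were called lower and 0 higher, beside 5.13% and 8.63% of all genes. With the counts of each gene summed with those of its copies, 4 of the 10 members were called lower (5.11% of all genes): mt-Nd6, mt-Co2, mt-Nd1 and mt-Co3, the last with an adjusted p of 0.0465 by edgeR. The median log2 fold change was then -0.72, and mt-Atp6 moved from -0.60 to -0.69.

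**Figure D2:**
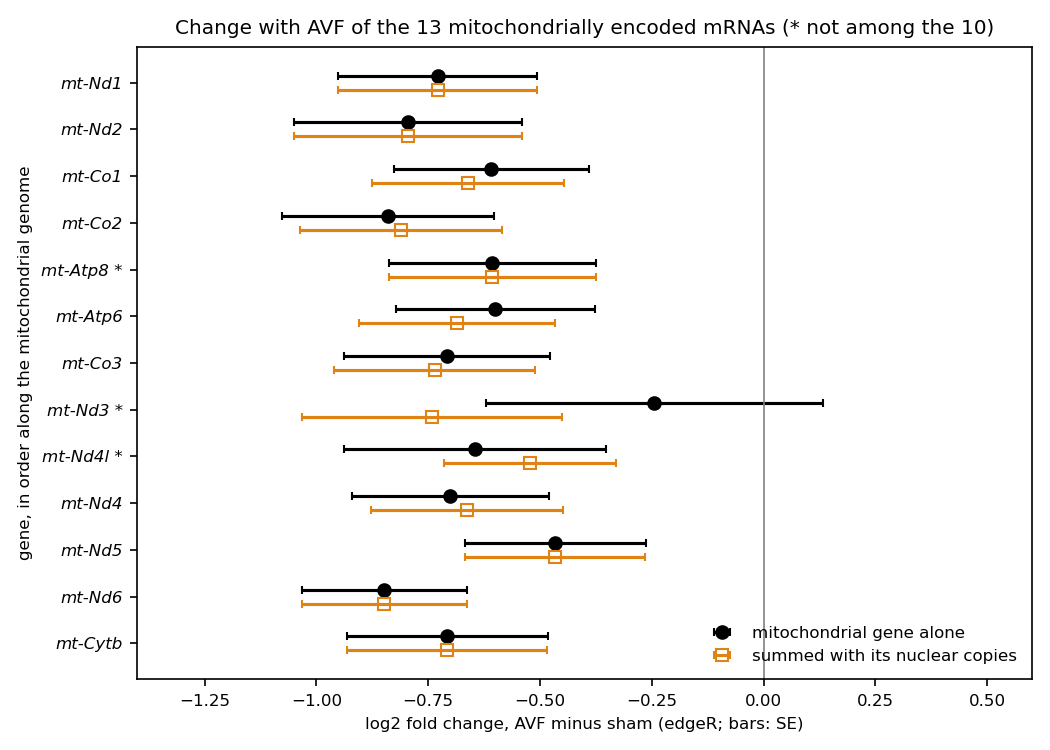
Log2 fold change of AVF against sham with its SE for the 13 mitochondrially encoded mRNAs in genome order, for the gene alone (black circles) and summed with its nuclear copies (open orange squares). All estimates are below 0, and that of mt-Nd3 moves most, from -0.24 to -0.74.

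**Figure D3:**
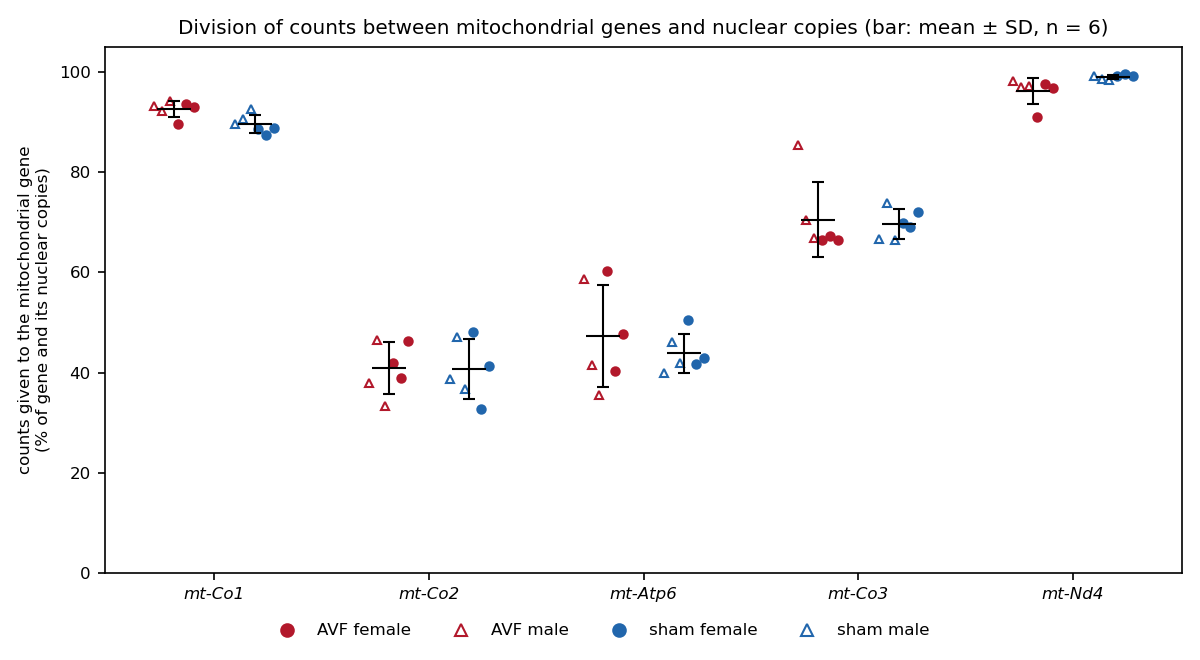
Counts given to the mitochondrial gene in percent of that gene and its nuclear copies, for 5 genes in each library, with mean ± SD (n = 6). mt-Co2 and mt-Atp6 received between 32.7% and 60.3%, and mt-Nd4 is the gene whose groups do not overlap.

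Per kilobase of gene, mt-Co1 had the highest level in sham (19622 ± 4088 CPM per kb, SD, n = 6), followed by mt-Cytb (16200.2 ± 4279), and each of these was above the next gene in 6 of 6 sham libraries. mt-Atp6, mt-Co2, mt-Co3 and mt-Nd4 followed with means of 12449.9 to 13145 CPM per kb, which did not differ beyond their spread. mt-Nd1 (11669) and mt-Nd2 (10287) came next. The lowest levels were those of mt-Nd5, with 4825 ± 1413 CPM per kb, and mt-Nd6, with 2570.2 ± 508 CPM per kb, and mt-Nd5 was above mt-Nd6 in every sham library. Summed with the copies, mt-Co2 (31642 CPM per kb) and mt-Atp6 (29948 CPM per kb) were above mt-Co1 (21904 CPM per kb), so that the order at the top depended on how shared reads were assigned. In AVF, mt-Co1 and mt-Cytb again led (12865 ± 3723 and 9923 ± 3000.4 CPM per kb), and mt-Nd6 was again the lowest of the 10 (1428 ± 346 CPM per kb). How fully each mRNA, mt-Nd6 among them, was captured as poly(A) RNA was not tested.

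**Figure D4:**
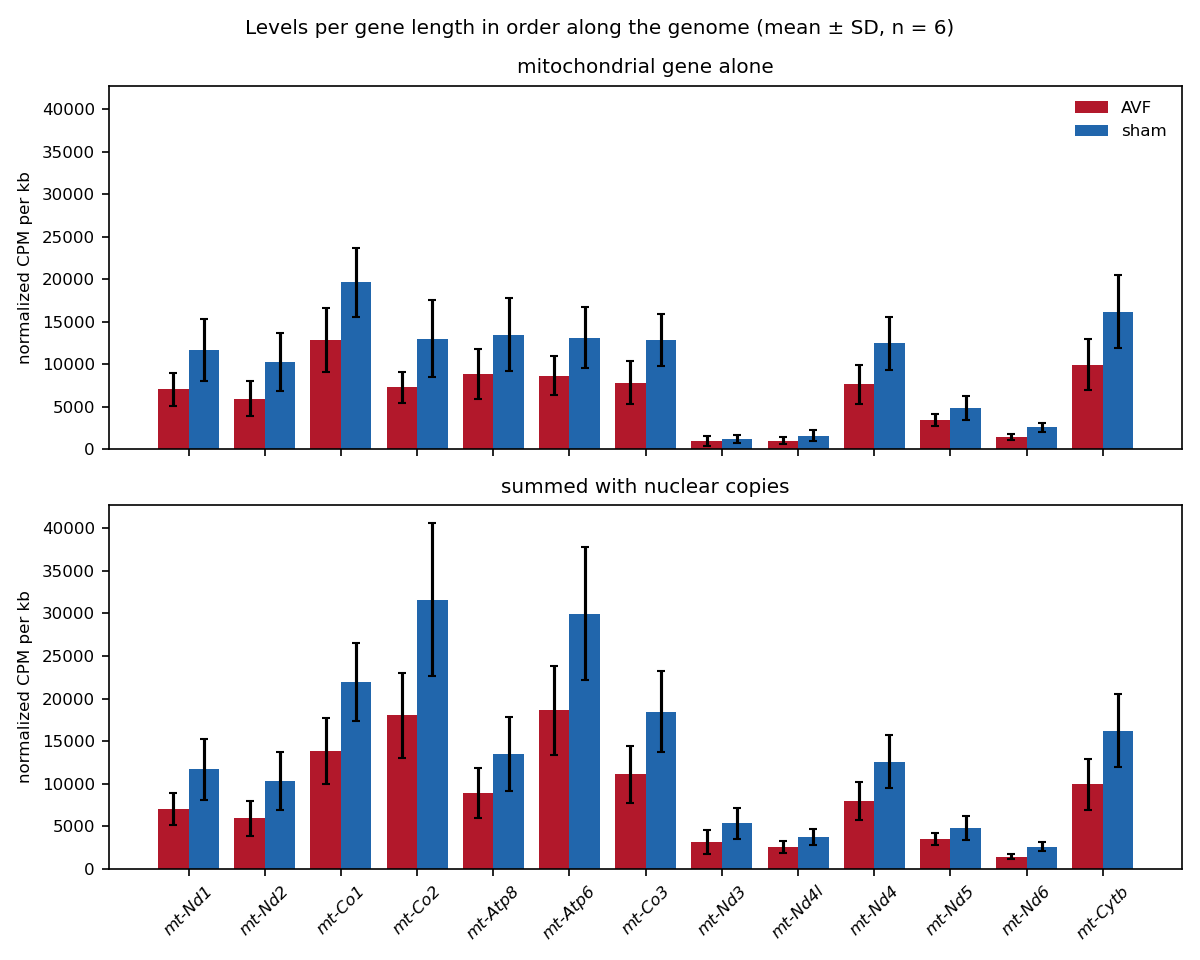
Mean normalized CPM per kilobase of gene (± SD, n = 6) of the 13 mitochondrially encoded mRNAs in genome order, for AVF (red) and sham (blue), for the gene alone (upper panel) and summed with its nuclear copies (lower panel). mt-Co1 is highest in the upper panel, mt-Co2 and mt-Atp6 are highest in the lower panel, and every red bar is below its blue bar.

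The 10 genes took up 4.13, 7.58 and 11.9% of all counts of a library as the lowest, median and highest AVF value, and 10.6, 12.4 and 17.8% in sham. The means were 7.68 ± 2.56% and 13.1 ± 2.64% (SD, n = 6), and AVF female 2 was the only AVF library within the sham range. Per 100 counts of nuclear genes that are not rRNA, the members had 9.81 ± 2.55 counts in AVF and 16.9 ± 4.22 in sham. Within the 10, mt-Co1 made up 25.1 ± 1.54% of their counts in AVF and 24.3 ± 1.69% in sham, mt-Cytb 14.3 ± 0.66% and 14.7 ± 0.417%, and mt-Nd6 0.958 ± 0.215% and 1.08 ± 0.189%. mt-Nd5 made up 8.22 ± 0.951% in AVF and 6.97 ± 0.819% in sham, with ranges of 7.31 to 9.82% and 5.86 to 7.8% that overlapped. All of these shares overlapped between the groups, and no test was made on them. mt-Nd5 and mt-Nd6 lie beside each other on opposite strands, and the log2 level of mt-Nd6 minus that of mt-Nd5 was -3.12 ± 0.38 in AVF and -2.70 ± 0.41 in sham, again with overlap.

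The members moved together from library to library. Over the 45 pairs of members, Pearson's r of log2 CPM over the 12 libraries was 0.63 to 0.99 with a median of 0.89. The highest was that of mt-Nd4 and mt-Cytb, and the lowest that of mt-Nd5 and mt-Nd6. The values of a library share its depth and scaling, and the 12 libraries include both groups, so r is given as a description. Ordered by the mean log2 CPM of the members, 5 AVF libraries were the lowest (12.16 in AVF female 3 to 12.71 in AVF male 1). AVF female 2 (13.15) stood between sham female 3 (13.11) and sham male 2 (13.21), and sham male 1 was the highest (13.80). The other AVF library with liver transcripts, AVF male 2, was the second lowest of the 12 (12.35).

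Sex was compared in a model of the 4 groups of operation and sex, with 3 mice in each, over 22163 genes. In AVF, the female minus male log2 difference of the 10 members was -0.11 to 0.26, none was called by edgeR (unadjusted p 0.478 to 0.982, 0 under 0.05; 0.0226% of all genes were called), and mt-Nd6 differed by 0.11 with an SE of 0.27. In sham it was -0.43 to 0.25, none was called (unadjusted p 0.184 to 0.971; 0.0451% of all genes), and mt-Nd5 was the lowest, with -0.43 and an SE of 0.30. The change with AVF was -0.93 (SE 0.27) for mt-Nd6 in females and -0.79 (SE 0.27) in males. Over the 10, the median change was -0.60 in females and -0.80 in males, and 0 of 10 were called by edgeR in either sex, beside 0.117% of all genes in males and 0.614% in females. 1 member in females and 7 in males were lower with an unadjusted p under 0.05, while over all genes this share was higher in females (9.51%) than in males (6.51%). The test of the difference itself, the interaction of operation and sex, called 0 of 10 members (unadjusted p 0.258 to 0.895) and 0% of all genes by edgeR. DESeq2 called 0 members in these contrasts except 1 in AVF against sham among females. The share of all genes that DESeq2 called in these contrasts was not counted. In AVF against sham over both sexes, DESeq2 called 9% of all genes lower, and the quasi-likelihood test 5.13%. The SE of the members in these contrasts was 0.27 to 0.56 on the log2 scale.

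The other 3 mRNAs of the mitochondrial genome, the complex I genes mt-Nd3 and mt-Nd4l and the ATP synthase gene mt-Atp8, did not pass the test. Their log2 fold changes were -0.24, -0.65 and -0.61, with adjusted p of 0.701, 0.151 and 0.0944 by edgeR. The 2 mitochondrial rRNAs varied far more between mice. mt-Rnr1, of the small ribosomal subunit, ranged over 765 to 22512 CPM in AVF and 3262 to 12365 CPM in sham (log2 fold change -0.10, SE 0.72, adjusted p = 0.94; edgeR), with its highest value in AVF female 1, the library with most nuclear rRNA. mt-Rnr2, of the large subunit, ranged over 2220.0 to 18325 CPM and 7342 to 25857 CPM (log2 fold change -0.93, SE 0.49, adjusted p = 0.21; edgeR). The libraries were made from poly(A) RNA, so the rRNAs were not measured as the mRNAs were. How fully each mRNA was captured was not tested either.

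The nuclear-encoded partners of these subunits were lower as well. Of 83 nuclear-encoded subunits of complexes I to IV and ATP synthase that were tested, 45 fell and none rose, with a median log2 fold change of -0.66, beside -0.71 for the mitochondrially encoded members and -0.01 over all genes, of which 5.13% fell. By complex, 21 of 37 fell in complex I, 4 of 4 in complex II, 4 of 9 in complex III, 11 of 15 in complex IV and 5 of 18 in ATP synthase. In complex I, Ndufb8 (log2 fold change -0.998, SE 0.24, adjusted p = 0.0178) and Ndufb10 (log2 fold change -0.62, SE 0.14, adjusted p = 0.0173; edgeR) had the lowest adjusted p. In complex II, which has no mitochondrially encoded subunit, these were Sdhb (log2 fold change -0.83, SE 0.21, adjusted p = 0.0243) and Sdhd (log2 fold change -0.84, SE 0.22, adjusted p = 0.0284; edgeR). In complex III they were Uqcrb and Uqcrh (log2 fold changes -0.78 and -0.62), and in ATP synthase Atp5pd and Atp5me (-0.49 and -0.77). In complex IV, Cox7a1, the subunit form of heart and skeletal muscle and of brown fat, had 3.55 ± 1.91 CPM in AVF and 25.2 ± 16.1 CPM in sham (log2 fold change -2.82, SE 0.48, adjusted p = 0.00326; edgeR), and every AVF library was below every sham library. Such separation was seen in 1 of the 83 subunits, beside 1.51% of all genes tested. Cox6a1 fell by 0.96 on the log2 scale. The count of 45 also rested on single libraries, while 2.62% to 5.97% of all genes fell with 1 library left out in turn. It was 4 without sham female 2, 5 without AVF female 3, 6 without sham male 1 and 7 without AVF male 2 or AVF male 3. It was 12 without sham female 1 or sham female 3 and 14 without AVF female 1. It was 36 without AVF male 1, 48 without AVF female 2 and 64 without sham male 2 or sham male 3. It was 11 without AVF male 2 and AVF female 2 and 1 without the 4 libraries with liver or muscle transcripts.

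The mean log2 CPM of the members minus that of the 83 nuclear-encoded subunits was 7.11 ± 0.18 in AVF and 7.17 ± 0.37 in sham (SD, n = 6), and the range in AVF, 6.85 to 7.32, lay within that of sham, 6.65 to 7.68. Over the 12 libraries the means of both sets had a Pearson's r of 0.84, as a description. Within sham, the sets did not keep 1 order. Sham male 2 had the third highest mean of the mitochondrially encoded members and, with 5.54, the second lowest sham mean of the nuclear-encoded subunits.

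**Figure D5:**
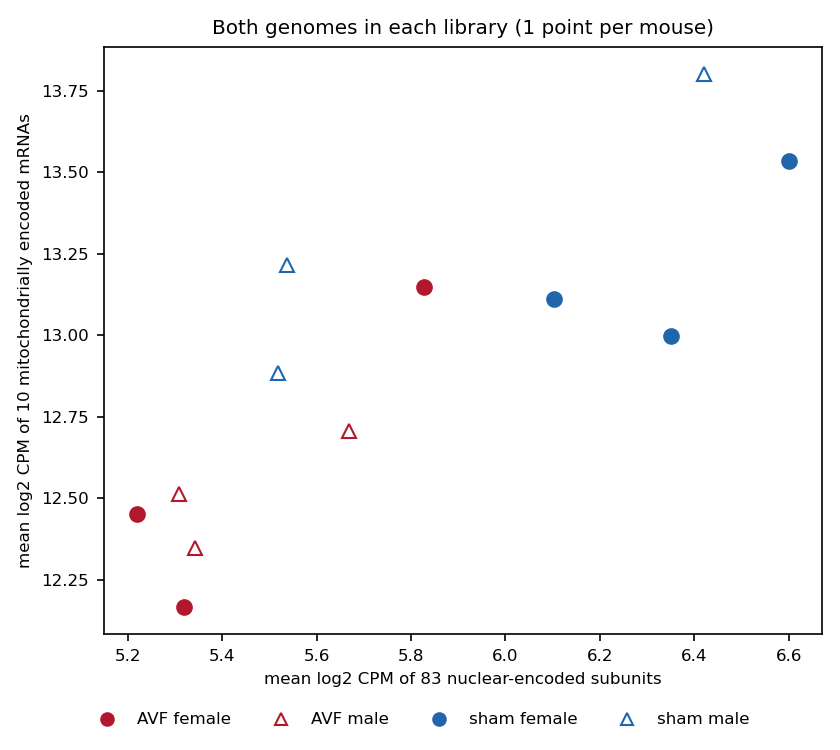
Mean log2 CPM of the 10 mitochondrially encoded mRNAs against that of 83 nuclear-encoded subunits, 1 point per mouse, AVF in red and sham in blue, female mice as filled circles and male mice as open triangles. The 5 lowest points on the vertical axis are AVF libraries, and AVF female 2 is at 13.15, within the sham range.

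Of 50 genes tested that serve the expression of the mitochondrial genome, 4 fell (8%) and 1 rose (2%), with a median log2 fold change of -0.24. Over all genes tested, 5.13% fell and 8.63% rose, so that the share that fell in this list was near that of all genes and the share that rose was below it. Mterf2, a transcription termination factor family member, fell (log2 fold change -0.69, SE 0.15, adjusted p = 0.0137; edgeR), with every AVF library below every sham library. Such separation was seen in 1 of the 50 genes, beside 1.51% of all genes tested. Polrmt, the mitochondrial RNA polymerase, did not pass the test (log2 fold change -0.56, SE 0.18, adjusted p = 0.0578; edgeR). In the cleavage of the long transcripts, Trmt10c, a subunit of mitochondrial RNase P, and Fastkd2, an RNA-binding protein of mitochondrial RNA granules, fell by 0.56 and 0.42 on the log2 scale (adjusted p = 0.0295 and 0.0311; edgeR). Of the genes for poly(A) tails and stability, none passed the test. Lrpprc, which stabilizes mitochondrial mRNAs, had log2 fold change -0.39, SE 0.13, adjusted p = 0.0676, and Grsf1, an RNA granule protein, had log2 fold change -0.35, SE 0.11, adjusted p = 0.0573 by edgeR. Among the regulators of mitochondrial biogenesis, Ppara, a nuclear receptor of fatty acid oxidation, fell (log2 fold change -1.45, SE 0.39, adjusted p = 0.029; edgeR), and Perm1 did not pass the test (log2 fold change -2.53, SE 0.80, adjusted p = 0.0519; edgeR). In replication of mitochondrial DNA, Dna2, a nuclease and helicase that also acts in the nucleus, rose (log2 fold change 1.01, SE 0.24, adjusted p = 0.0196; edgeR), while Mgme1, a mitochondrial exonuclease, did not pass the test (log2 fold change -0.47, SE 0.17, adjusted p = 0.0813; edgeR). The translation elongation factors Gfm1 and Tufm had log2 fold changes of -0.42 and -0.49 and did not pass the test. Of 78 genes of mitochondrial ribosomal proteins, 11 fell (14.1%) and none rose (median -0.29), and of 35 assembly factors 5 fell (14.3%) and none rose (median -0.31), beside the 5.13% of all genes that fell. With 1 library left out in turn, 2.62% to 5.97% of all genes fell. The count of the expression list was 1 without AVF male 3, sham female 1 or sham female 2, 2 without AVF male 2, AVF female 3 or sham male 1, 7 without AVF female 2 or sham male 3 and 11 without sham male 2. That of the ribosomal list was 21 without sham male 3, 4 without AVF male 1, 2 without AVF male 2, sham female 1 or sham female 3, and 1 without AVF male 3, AVF female 1, AVF female 3, sham male 1 or sham female 2. The count of assembly factors was 3 without sham female 2.

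Markers of other cell types differed between the groups in both directions. The 10 brown adipocyte markers all had a lower mean in AVF, and their summed level was 92.3 to 412 CPM in AVF and 221 to 2145 CPM in sham. Brown adipocytes are rich in mitochondria and are defined by Ucp1, which uncouples the respiratory chain from ATP synthesis. Ucp1 had 1.69 to 121 CPM in AVF and 22.9 to 1088 CPM in sham, and no marker of this list was undetected throughout. In sham male 2 and sham male 3, the brown adipocyte sum was 221 and 367 CPM, within the AVF range. Their mean log2 CPM of the members was 13.21, above all 6 AVF libraries, and 12.88, above 5 of the 6. Their mean log2 CPM of the nuclear-encoded subunits was 5.54 and 5.52, within the AVF range of 5.22 to 5.83. In the other 4 sham libraries, the brown adipocyte sum was above the AVF range. Of these, sham male 1 (1176 CPM) and sham female 1 (2145 CPM) had the highest means of the members, 13.80 and 13.53. Sham female 2 (1486 CPM) and sham female 3 (717 CPM) lay below sham male 2 in that mean. Sympathetic neuron markers had 154 to 868 CPM in AVF and 366 to 1459 CPM in sham, with 10 of 10 lower in the mean. White adipocyte markers had 3865 to 8965 and 3979 to 9440.0 CPM, with 5 of 10 lower. Fibroblast markers were higher in every AVF library (17317 to 28995 CPM) than in any sham library (8447 to 16766 CPM), as were macrophage markers (1075 to 1747 and 564 to 926 CPM). Red blood cell markers had 3725 to 19599 and 4003 to 6529.5 CPM, and those of B and T cells 6.57 to 15.4 and 3.97 to 10.4 CPM. The part of these cells in the levels of the members was not tested.

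The 10 nuclear genes whose log2 level was most like the mean of the members over the 12 libraries, among 15260 compared, had a Pearson's r of 0.90 to 0.95. They were Tcaim (r = 0.95, Spearman's rho = 0.94), which encodes a mitochondrial protein, and Pcmtd1, Gngt2, Emc7, Clic5, Gss, Tmem126b, Ccdc91, Acot13 and Eif4e3. Tmem126b is an assembly factor of complex I (r = 0.91, rho = 0.93), and Acot13 is a thioesterase of fatty acyl-CoA at mitochondria (r = 0.91, rho = 0.90). Gss, glutathione synthetase, had r = 0.91. None of the 10 was a nuclear-encoded subunit of the complexes. The 83 subunits had a median r of 0.81 with the mean of the members, beside 0.02 over all genes compared. Within AVF (n = 6) r of the 10 was 0.71 to 0.96, and within sham (n = 6) it was 0.73 to 0.96. All of these are descriptions over libraries that share depth and scaling.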

How the data were processed

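RNA-seq of the IVC of 12 mice was used, 1 library per mouse, grouped by operation and sex from the sample labels. The authors trimmed reads with PRINSEQ and Trimmomatic 0.39, aligned them with STAR 2.7.7a to GRCm39 with Ensembl annotation, and estimated gene counts with RSEM 1.3.3. These expected counts, without normalization, are what was deposited. RSEM divides reads that fit several genes among them, which affects mitochondrial genes with nuclear copies. 5.72% to 7.75% of the genes of each library had a fractional count, and counts were rounded for the tests. Names and coordinates came from GENCODE M39 (GRCm39), a later release than that of the authors, in which 665 of 55414 identifiers had no name. The columns were matched to mice by the number in the labels.

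AVF was compared with sham with edgeR 4.0.16 (R 4.3.3, limma 3.58.1): TMM normalization, a filter of over 1 CPM in 2 or more libraries (15912 genes), quasi-likelihood F test, Benjamini-Hochberg adjustment over all of these, called at an adjusted p under 0.05. Contrasts of sex used 1 model of the 4 groups and genes with more than 12 counts in all (22163). Log2 CPM used a prior count of 1. Normalized CPM are TMM-scaled, and levels between genes were compared per kilobase of gene. Copies were found with BLAST 2.17.0. The smallest amount taken as detected, 3 counts, was 0.127 to 0.323 normalized CPM. The 12 pairs of libraries of the same operation and sex had a chi-square per degree of freedom of 40.1 to 680, so that no pair was alike within counting error. The edgeR fit of AVF against sham was checked on simulated counts, with the same dispersion for all genes and no outlying libraries. The other steps were not checked in this way. DESeq2 1.42.0, the exact test and the other alternatives are listed in the closing section.

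The 10 members, the lists and the tests were chosen with earlier results of these data known. Genes named are the members, the other mitochondrially encoded RNAs, up to 2 genes with the lowest adjusted p in each sublist of nuclear-encoded subunits and of mitochondrial gene expression, the 10 genes most like the members, first markers of cell types and the nuclear copies. Tmem126b is also in the list of assembly factors, and Cox7a1 in that of brown adipocyte markers.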

Additional observations from a re-analysis of the deposited data

Results flagged for a closer look

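3 of the 20 groups tested (10 members in AVF and in sham, 6 libraries each) held a library far from the others, by a rule that chance meets in about 1 in 20 groups. All 3 were AVF female 2, and the genes of a library share its scaling. In this library mt-Nd1 had 10127 normalized CPM, with 7044 in the nearest other AVF library, mt-Cytb had 17994 with 11295 in the nearest, and mt-Co2 had 7389.8 with 5133 in the nearest. The same library held the highest level of hepatocyte markers of the 12, and the part of that tissue in these values was not tested. No member differed between the sexes in its change with AVF by the test of the interaction.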

How the results depend on the processing

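Under 28 alternatives, the direction of the log2 fold change of all 10 members held, and of 280 values 218 kept their side of the threshold, 33 lost their call and 29 gained one. mt-Nd6 was called under 27 of 28, mt-Co2 under 15, mt-Nd1 under 9 and mt-Nd5 under 0. The median of the 10 stayed between -0.88 and -0.57 with 1 library left out. The cause of the moves below was not tested. Some of the alternatives also had fewer libraries or more genes tested. edgeR's exact test called 9 members, 8 expression genes, 7 ribosomal genes lower and 1 assembly factor higher, and DESeq2 9, 13, 17 and 1. Over all genes they called 6.28% and 9% lower. Upper quartile factors called 6 members, beside 5.49% of all genes called lower. RLE factors and scaling to nuclear genes that are not rRNA called 4 ribosomal genes each. Total counts without TMM, which shifted the median of all genes from -0.01 to -0.12 and turned the split of all genes from 817 lower and 1373 higher to 772 and 547, called 0 expression genes higher, 2 ribosomal genes and 3 assembly factors. The filter of more than 12 counts called 3 ribosomal genes, and no filter 1 member, 25 nuclear-encoded subunits, 1 ribosomal gene and 3 assembly factors. Over all genes, 3.05% were called lower with that filter and 1.56% with no filter. Leaving out AVF male 2 and AVF female 2 gave 5 members, 11 subunits and 4 ribosomal genes, beside 2.05% of all genes.

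Chosen after seeing the data, leaving out AVF female 1 with rRNA out of the library size gave 1 member, 15 subunits and 1 ribosomal gene. Over all genes, 6.55% were called lower in that fit. Leaving out the 4 libraries with liver or muscle transcripts gave 0 members, 1 subunit, 0 expression genes in either direction, 0 ribosomal genes and 0 assembly factors. Over all genes, 0.51% were called lower without these 4 libraries. Summing members with their copies gave 4 members, beside 5.11% of all genes. With 1 library left out in turn, the count was 1 to 8 for members, 4 to 64 for subunits, 1 to 11 for expression genes, 1 to 21 for ribosomal genes and 3 to 6 for assembly factors, all lower in AVF. The share of all genes called lower was then 2.62% to 5.97%.

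Same-numbered AVF and sham mice of the same sex had correlations of -0.13 to 0.25 over 6 pairs. The mean was 0.097, beside -0.019 in other combinations, and 2 of 6 AVF libraries were closest to their own number. So few values cannot settle whether the numbers pair the samples, and the replicate block was run as an alternative. With the replicate block, 2 members were called, beside 4.25% of all genes lower, and 0 expression genes in the higher direction. In AVF against sham among females, the block called 1 member and DESeq2 also called 1. The share of all genes called there was not counted. The difference in the share of all counts, -5.40 percentage points, was -6.24 to -4.47 with 1 library left out. The 10 genes most like the members were the same 10 with RLE factors. Depth did not limit the members, which had at least 8546 counts in each library, while 6 mice a group limit the precision.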

Other observations

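Gm28439, the nuclear copy of the first 876 bases of mt-Nd4, was the only 1 of 11 copies with a higher mean in AVF. Its level was 212, 278 and 302 CPM in the AVF males, 846, 398 and 252 CPM in the AVF females, 180.1, 219 and 223 CPM in the sham males and 166, 47.8 and 125 CPM in the sham females. Its neighbours in the same block, Gm10222 and Gm28438, had log2 fold changes of -0.44 and -0.92. The division of identical reads was made by the counting program, and its part in this difference was not tested.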
